A study of Mus musculus with 6 samples.

Results

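The genes described here encode the WNT ligands, their Frizzled and co-receptors, the R-spondins with their receptors, the secreted antagonists and the intracellular end of the pathway. They were chosen by name, with earlier results of these data known. Every row of the deposited table whose gene name is a Wnt, Fzd, Sfrp, Frzb, Dkk or Rspo symbol was taken. Rows named Lgr (4 to 6), Lrp5, Lrp6, Axin1, Axin2, Ctnnb1 or by a TCF/LEF symbol were taken as well. This gave 54 genes, each with 1 record, of 55413 genes in the table. The material was C2C12, mouse myoblasts of an established line that form myotubes in low serum, moved from medium with 10% fetal bovine serum to 2% horse serum and collected on day 4. One group, labelled WT, carries no modification named in the labels, and the other carries the label FHL3 KO, a knockout of a LIM-only cofactor found in skeletal muscle. Each group has 3 RNA-seq libraries. The labels give neither the guide or allele nor the clone behind the knockout, so a clonal difference and the genotype cannot be told apart.

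WNT proteins are secreted, lipid-modified signals. When a WNT binds a Frizzled receptor together with LRP5 or LRP6, the complex that marks beta-catenin for destruction is disabled, and beta-catenin joins TCF/LEF factors at target genes. Other WNT signals act through Frizzleds on cell polarity and calcium without beta-catenin. In muscle, WNTs are known for their parts in the onset of myogenesis in the embryo, in fibre patterning and in the switch of satellite cells from growth to differentiation. R-spondins, acting through LGR receptors, keep Frizzleds at the cell surface, whereas SFRP, FRZB and DKK proteins block ligand or co-receptor outside the cell.

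Values were read as FPKM, a level per kilobase of gene and per size of the library, from their range and sums, since the table's header names no unit. The order of levels between genes holds only under that reading. Library sums ran from 424987 to 473369 FPKM in WT and from 477577 to 494176 FPKM in the FHL3 KO-labelled libraries, without overlap. The main test did not scale the libraries to equal sums. Read depth cannot be had from these sums, so no interval for counting error accompanies the values. In WT replicate 1, 63 genes (such as Alb, a product of liver) were above 1 FPKM and over 10 times their level in any other library, but no WNT gene was among them. Fhl3 RNA itself was 57.2, 53.5 and 58.9 FPKM under the KO label and 27.8, 30.03 and 33.7 FPKM in WT (log2 change 0.87, limma adjusted p = 0.000547). A transcript level cannot show whether the protein is lost, so the groups are named by their labels. A gene is said to have risen or fallen where it was higher or lower under the KO label than in WT at a limma adjusted p of 0.05 or less. Nothing in the labels states that replicates were separate cultures, so the p-values measure the spread between these libraries, which may be technical.

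Myotube genes were abundant in every library. The summed FPKM of 10 myotube markers lay between 4569 and 5089 in WT and between 10533 and 10965 in the FHL3 KO-labelled libraries, and 9 of the 10 rose. Over all genes tested, 19.7% rose and 21.2% fell. Of 6 markers of undifferentiated myoblasts, 5 reached a mean of 1 FPKM (2 rose, 2 fell), with sums of 66.3 to 74.3 and 53.3 to 56.0 FPKM. Of 6 proliferation genes 2 rose and 3 fell, with sums of 97.4 to 117 and 94.2 to 111 FPKM. Of 8 fibroblast markers 5 reached 1 FPKM (1 rose, 3 fell) and Thy1 was listed at 0, with sums of 436 to 498 in WT and 148 to 166 FPKM. Of 7 adipocyte markers 3 reached 1 FPKM (1 rose, 2 fell), with sums of 17.6 to 23.4 and 10.2 to 10.9 FPKM, while Adipoq and Plin1 were listed at 0. The 6 osteoblast markers summed to 2.67 to 3.58 and 4.28 to 5.83 FPKM (2 tested, 1 rose), with Ibsp listed at 0. Of the 6 blood and immune markers only Hba-a1 reached 1 FPKM, and it fell (sums of 8.69 to 11.8 and 1.91 to 2.23 FPKM). Endothelial markers summed to at most 1.38 FPKM. Hepatocyte markers summed to between 0 and 81.0 FPKM in WT and to 0 in the FHL3 KO-labelled libraries. Alb among them was at 56.0 FPKM in WT replicate 1, 0.0208 in replicate 2 and 0 in replicate 3. The part of these shifts in the WNT results was not tested.

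Promoter stretches are shown for Fzd7, Lgr6 and Wnt9a, changed receptors and a ligand whose windows in RefSeq (GRCm38.p6) hold 1 match each. Each run is the 250 bases before the start in RefSeq, 5′ to 3′ on the gene's own strand, and capitals mark matches to a TCF/LEF motif (CTTTGAA, the variant CTTTGAT, the variant CTTTGTA or the variant CTTTGTT) or an E-box of the kind bound by myogenic factors (CAGCTG or the variant CACCTG), searched on both strands.
Fzd7: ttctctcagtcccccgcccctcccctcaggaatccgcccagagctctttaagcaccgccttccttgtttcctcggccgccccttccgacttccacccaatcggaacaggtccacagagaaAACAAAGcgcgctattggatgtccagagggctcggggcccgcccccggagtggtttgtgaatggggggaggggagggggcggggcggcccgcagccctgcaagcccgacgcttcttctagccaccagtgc
Lgr6: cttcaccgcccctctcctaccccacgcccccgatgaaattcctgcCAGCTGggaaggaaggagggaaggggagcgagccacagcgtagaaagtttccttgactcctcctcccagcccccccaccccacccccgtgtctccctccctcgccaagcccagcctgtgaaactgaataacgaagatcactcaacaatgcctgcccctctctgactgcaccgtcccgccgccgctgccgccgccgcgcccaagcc
Wnt9a: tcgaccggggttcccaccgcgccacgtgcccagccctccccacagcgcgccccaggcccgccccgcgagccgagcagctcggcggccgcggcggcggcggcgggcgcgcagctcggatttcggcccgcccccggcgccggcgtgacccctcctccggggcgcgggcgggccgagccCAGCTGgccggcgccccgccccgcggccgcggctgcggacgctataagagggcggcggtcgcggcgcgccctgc

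The windows lie at chr1:59481897-59482146 (plus strand, Fzd7), chr1:135105277-135105526 (minus strand, Lgr6) and chr11:59306680-59306929 (plus strand, Wnt9a). The capitals are AACAAAG in Fzd7, the TCF/LEF letters read on the reverse strand, and the E-box letters CAGCTG in Lgr6 and in Wnt9a. RefSeq windows were found for 36 of the 54 members. Of the changed members not shown, Wnt4 had 1 E-box, and Fzd9 and Tcf7l1 had no match. Tcf7 and Tcf7l2 each had a window with 1 match and another with none. Among their 45 windows, 6 held a TCF/LEF match and 15 an E-box, and among all 32851 windows of this length the shares were 14.8% and 27.7%. The motifs do not overlap each other in the windows shown, and a match describes letters, not a bound site.

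Of the 54 members, 12 were listed at 0 in all 6 libraries (Wnt2, Wnt3a, Wnt8a, Wnt8b, Wnt9b, Fzd10, Rspo1, Rspo4, Lgr5, Sfrp5, Dkk1 and Dkk4), and an exact 0 can be a failed estimate. Another 17 were above 0 in some library but below the filter of a mean of 1 FPKM in at least 1 group. The remaining 25 were tested, and 10 rose, 4 fell and 11 made no call. Among all 12528 genes tested, 19.7% rose, 21.2% fell and 40.8% were called in either direction. With libraries scaled to the same sum, 6 members rose and 4 fell, and over all genes 1687 rose and 2962 fell against 2462 and 2650. Without WT replicate 1, 8 members rose and 2 fell, beside 2026 and 1958 over all genes. Without WT replicate 2 these counts were 5 and 1, beside 1605 and 1667. Without WT replicate 3 they were 6 and 4, beside 2133 and 2482. Without FHL3 KO-labelled replicate 1 they were 8 and 1, beside 1825 and 1749. Without FHL3 KO-labelled replicate 2 they were 8 and 4, beside 2422 and 2851. Without FHL3 KO-labelled replicate 3 they were 8 and 2, beside 2032 and 2051. Of the 25, 6 passed the filter through 1 group alone (Wnt7b, Lgr6, Sfrp4 and Tcf7l2 through the FHL3 KO-labelled libraries, Wnt4 and Dkk2 through WT), so 5 of the 14 calls came from genes that only their higher group brought past the filter. With a filter on the mean of all libraries 23 members were tested, and 9 rose and 3 fell, against 19.7% and 20.5% of all genes. Of the 19 that passed in both groups 6 rose and 3 fell, where 19.7% and 19.5% of all genes passing in both groups did. Groups did not overlap for 15 of the 25, against 53.8% of all genes tested. The median log2 change was 0.22 over the 25 and -0.005 over all genes tested.

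**Figure D1:**
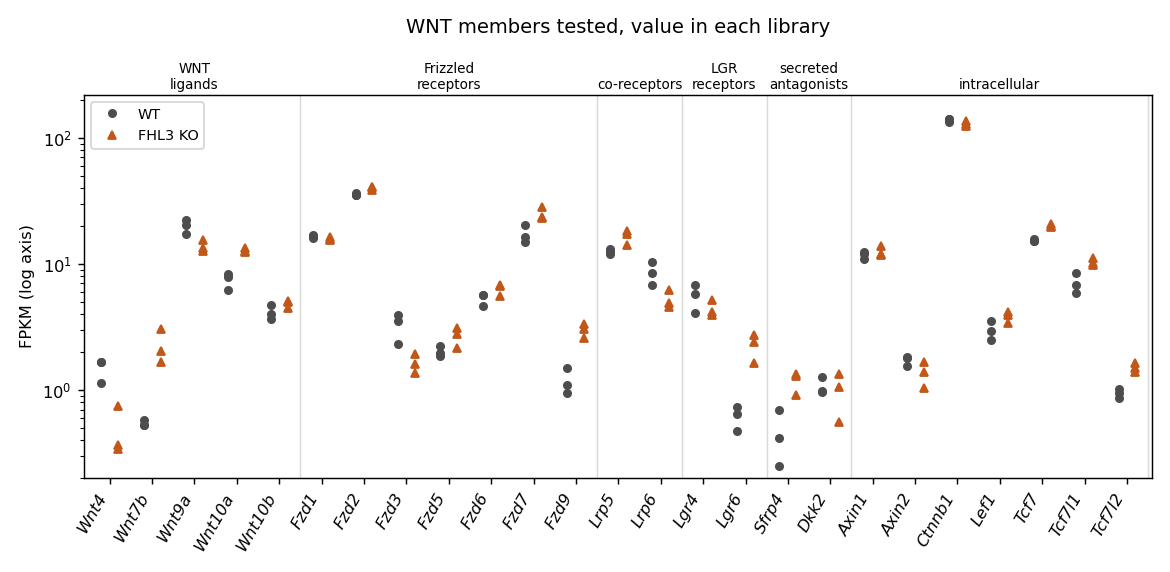
FPKM on a log axis for each of the 25 WNT members tested, ordered by role, with a circle for each of 3 WT libraries and a triangle for each of 3 FHL3 KO-labelled libraries. Ctnnb1 is the highest member at 124 to 141 FPKM, and the groups are apart for Wnt7b, Lgr6, Fzd9 and Wnt4 but overlap for Axin2 and Dkk2.

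Wnt9a, the most abundant ligand, and Wnt4 fell, while Wnt10a and Wnt7b rose, and Wnt10b made no call. The combined ligand level was 32.7, 33.0 and 37.9 FPKM in WT and 34.3, 38.9 and 34.3 FPKM in the FHL3 KO-labelled libraries, so the sums overlapped. Of the 19 ligands 5 were tested, 9 stayed below the filter and 5 were listed at 0. As bulk RNA was measured, fewer cells that make a transcript and less of it per cell cannot be told apart.

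Wnt9a (ENSMUSG00000000126, chromosome 11, 59306928 to 59333552, GRCm38), a ligand known from joint development, stood at 17.2, 20.3 and 22.5 FPKM in WT, against 13.5, 15.6 and 12.7 FPKM for the KO label. All WT libraries lay above all others, by a narrow margin between 15.6 and 17.2 FPKM. Its mean fell from 20.0 ± 2.6 to 13.9 ± 1.5 FPKM (SD, n = 3 each), a log2 change of -0.49 (SE 0.12, limma adjusted p = 0.0156). The call ended without WT replicate 2 (adjusted p = 0.0597), without the FHL3 KO-labelled replicate 1 (0.0553) and without a filter on low values (0.0508), over a range from 0.00312 to 0.0597 in all alternatives. Wnt3a, its neighbour 16.2 kb away on the other strand, was listed at 0 in every library.

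Wnt10a (ENSMUSG00000026167, chromosome 1, 74791516 to 74804179), which acts through beta-catenin in skin and tooth, stood at 8.26, 6.18 and 7.89 FPKM in WT, against 12.7, 13.4 and 12.3 FPKM for the KO label. The groups were well apart, with the highest WT library below every FHL3 KO-labelled library. The mean rose from 7.44 ± 1.1 to 12.8 ± 0.56 FPKM (log2 change 0.72, SE 0.12, limma adjusted p = 0.00314), and the Wnt10a change was 0.43 with the trend with length and GC content removed (adjusted p = 0.0243). Wnt6, whose gene ends 6.19 kb upstream on the same strand, was higher in the same libraries at a level below the filter, with 0.139, 0.198 and 0.191 FPKM in WT against 0.456, 0.430 and 0.287 FPKM. Without a filter its limma adjusted p was 0.0523.

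Wnt7b (ENSMUSG00000022382, chromosome 15, 85535437 to 85582473), a ligand of lung and bone development, had the largest rise of the ligands tested. It stood at 0.532, 0.527 and 0.583 FPKM in WT, against 1.66, 2.03 and 3.04 FPKM for the KO label. The WT libraries were nearly equal, and the others were all above them but more widely spread. The mean went from 0.547 ± 0.031 to 2.25 ± 0.71 FPKM, 4.10 times the WT level (log2 change 1.05 on the log2(FPKM + 1) scale, which understates low genes; limma adjusted p = 0.00307).

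Wnt4 (ENSMUSG00000036856, chromosome 4, 137277489 to 137299726), known from kidney and gonad formation, moved the other way. It stood at 1.13, 1.67 and 1.65 FPKM in WT, against 0.344, 0.743 and 0.365 FPKM for the KO label, with no overlap. The mean fell from 1.48 ± 0.31 to 0.484 ± 0.22 FPKM (log2 change -0.75, SE 0.16, limma adjusted p = 0.00969). Wnt10b, a ligand known to favour myogenic over adipogenic fate, stood at 4.74, 3.67 and 4.01 FPKM in WT, against 4.48, 5.11 and 5.01 FPKM. Its groups overlapped and it made no call (log2 change 0.19, 95% interval -0.08 to 0.47, limma adjusted p = 0.214), except after quantile normalization (0.34, adjusted p = 0.0315, up to 0.630 over the alternatives).

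As shares of the summed ligand FPKM, Wnt9a took 57.9% ± 4.6 in WT and 38.8% ± 1.6 in the FHL3 KO-labelled libraries, while Wnt10a took 21.6% ± 3.4 and 35.8% ± 1.2. Wnt9a was the leading ligand in all 6 libraries, but under the KO label it took 39.4, 40.1 and 37.0% where Wnt10a took 36.9, 34.5 and 36.0%. The Wnt10b shares were 12.1% ± 2.1 and 13.6% ± 0.87. Wnt7b went from 1.59% ± 0.047 to 6.32% ± 2.2 and Wnt4 from 4.30% ± 0.80 to 1.33% ± 0.51. Among the ligands below the filter, Wnt11, which acts without beta-catenin in elongating muscle fibres, was at 0.167, 0.170 and 0.595 FPKM in WT, against 0.576, 1.01 and 0.366 FPKM, with overlap. Wnt2b and Wnt5b lay between 0.0345 and 0.358 FPKM in all 6 libraries with overlapping groups, and Wnt1, Wnt3, Wnt5a, Wnt7a and Wnt16 were listed at 0 in 4 or more libraries.

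**Figure D2:**
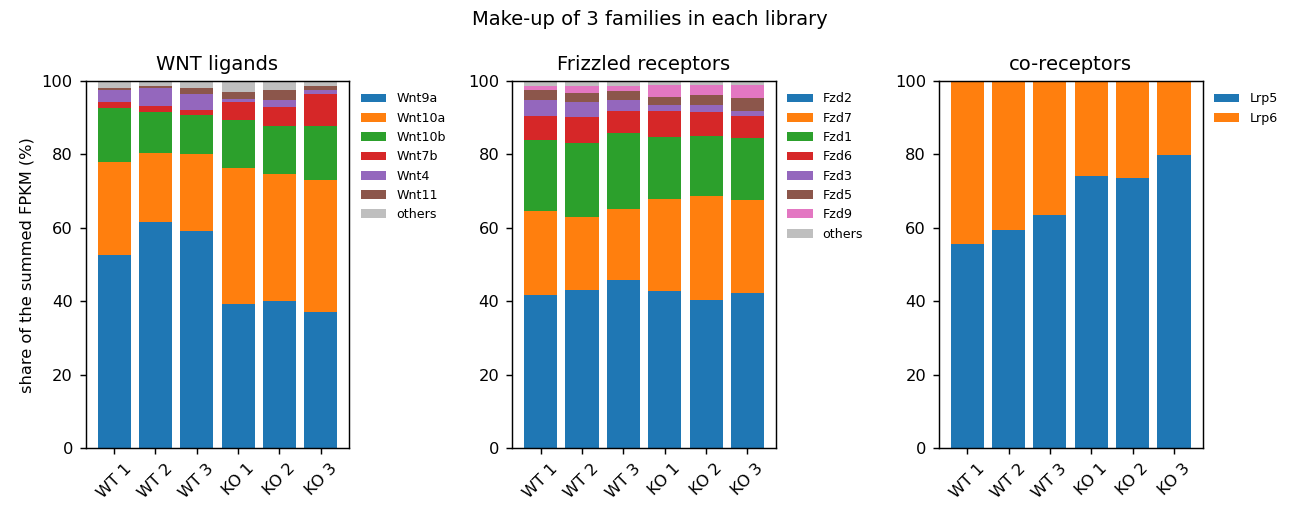
Share of the summed FPKM of the ligands, the Frizzled receptors and the co-receptors (percent, vertical axis) taken by each gene in each library, with WT on the left and the FHL3 KO-labelled libraries (KO) on the right of each panel. Wnt9a and Lrp6 take smaller shares under the KO label, and Wnt10a, Wnt7b and Lrp5 take larger ones. Wnt9a, Lrp5 and Fzd2 lead their families in every library.

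The Frizzled receptors were dominated by Fzd2, Fzd7 and Fzd1 in both groups. Fzd7 and Fzd9 rose and Fzd3 fell, while Fzd1, Fzd2, Fzd5 and Fzd6 made no call. Of the 10 Frizzleds 7 were tested, while Fzd4, Fzd8 and Fzd10 were not. Below the filter, Fzd4 was at 1.05, 0.900 and 0.650 FPKM in WT, against 0.573, 0.524 and 0.647 FPKM, and Fzd8 at 0.227, 0.225 and 0.312 FPKM and at 0.381, 0.593 and 0.365 FPKM. Neither pair of groups overlapped, though for Fzd4 the nearest libraries, at 0.650 and 0.647 FPKM, were almost equal. Without a filter neither gene passed (limma adjusted p = 0.238 and 0.156). The summed level of the family was 87.8, 81.8 and 77.0 FPKM in WT and 94.1, 101 and 92.0 FPKM in the FHL3 KO-labelled libraries.

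Fzd2 (ENSMUSG00000050288, chromosome 11, 102604396 to 102608058), a receptor of both pathway arms, was highest, at 36.6, 35.2 and 35.3 FPKM in WT, against 40.3, 40.7 and 38.8 FPKM for the KO label. Although these groups did not overlap, the difference was small and did not pass (log2 change 0.16, 95% interval -0.00 to 0.32, limma adjusted p = 0.102). With the trend with length and GC content removed, the change was -0.02. Fzd1 made no call either, at 16.5 ± 0.51 and 15.9 ± 0.42 FPKM (interval of the log2 change -0.22 to 0.13).

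Fzd7 (ENSMUSG00000041075, chromosome 1, 59482424 to 59486955), the Frizzled of satellite cells that binds WNT7A, stood at 20.2, 16.3 and 14.8 FPKM in WT, against 23.5, 28.5 and 23.3 FPKM for the KO label. The groups were apart, with WT replicate 1 the closest to the others. Its mean rose from 17.1 ± 2.8 to 25.1 ± 3.0 FPKM (log2 change 0.54, SE 0.13, limma adjusted p = 0.0159). In WT Fzd7 took 20.7% ± 2.0 of the family's FPKM and Fzd1 20.1% ± 0.70, and in the FHL3 KO-labelled libraries they took 26.2% ± 1.8 and 16.7% ± 0.37. The call ended with libraries scaled to the same sum (adjusted p = 0.0679), without WT replicate 2 (0.0609) and without a filter (0.0569), with 0.0088 the lowest value over the alternatives. Wnt7a, the ligand with which Fzd7 is paired in satellite cells, was listed at 0 in all but 1 library, where it was at 0.0530 FPKM.

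Fzd9 (ENSMUSG00000049551, chromosome 5, 135248938 to 135251230), a receptor known from the neuromuscular junction and bone, stood at 0.947, 1.51 and 1.09 FPKM in WT, against 3.05, 2.59 and 3.32 FPKM for the KO label. Every FHL3 KO-labelled library was above every WT library. The mean rose 2.53-fold, from 1.18 ± 0.29 to 2.99 ± 0.37 FPKM (log2 change 0.88, SE 0.14, limma adjusted p = 0.00304). Fzd3 (chromosome 14, 65192449 to 65262463), a receptor of the polarity arm, stood at 3.92, 3.51 and 2.33 FPKM in WT, against 1.59, 1.93 and 1.36 FPKM. It fell from 3.25 ± 0.83 to 1.63 ± 0.29 FPKM (log2 change -0.68, SE 0.17, limma adjusted p = 0.0174).

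The Fzd3 transcript model is one of the longest of the members, with 12804 exonic bases, and the log2 change was -0.15 (adjusted p = 0.291) after removal of the trend with length and GC content. Of the 3123 genes tested with exon models of 6525 bases or more 33% fell and 10.5% rose, against 13.1% and 23.7% of the 3124 with 2333 bases or fewer. The Fzd3 call also ended without WT replicates 1 (adjusted p = 0.0534) or 2 (0.0688), without the FHL3 KO-labelled replicates 1 (0.0545) or 3 (0.0553) and without a filter (0.0722). Fzd5 and Fzd6 were at 2.02 ± 0.18 and 2.67 ± 0.46 FPKM and at 5.32 ± 0.59 and 6.35 ± 0.68 FPKM, with overlapping groups. Both were called upward after quantile normalization alone (adjusted p = 0.0312 and 0.0343, and up to 0.336 and 0.531 over the alternatives).

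The co-receptors LRP5 and LRP6, which carry the beta-catenin signal of a bound WNT, went in opposite directions. Lrp5 (ENSMUSG00000024913, chromosome 19, 3584828 to 3686564) stood at 13.1, 12.4 and 11.9 FPKM in WT, against 14.0, 17.2 and 18.1 FPKM for the KO label. Lrp6 (ENSMUSG00000030201, chromosome 6, 134446476 to 134566965) stood at 10.4, 8.49 and 6.85 FPKM in WT, against 4.91, 6.19 and 4.59 FPKM. Neither gene's groups overlapped, though the margin was under 1 FPKM for both. Lrp5 rose from 12.5 ± 0.61 to 16.4 ± 2.1 FPKM (log2 change 0.36, SE 0.11, limma adjusted p = 0.0320) and Lrp6 fell from 8.59 ± 1.8 to 5.23 ± 0.85 FPKM (-0.61, SE 0.16, adjusted p = 0.0205). Their sums overlapped, at 21.1 ± 2.4 and 21.7 ± 2.4 FPKM.

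Within a library Lrp5 was 1.26, 1.46 and 1.74 times Lrp6 in WT and 2.86, 2.77 and 3.94 times Lrp6 in the FHL3 KO-labelled libraries, a ratio chosen after the values were seen. Both genes are long, with 9738 and 13672 exonic bases, and both calls held with the length and GC trend removed (0.38, adjusted p = 0.00868, and -0.34, adjusted p = 0.0128). Each call is near the threshold. The Lrp5 adjusted p lay between 0.0514 and 0.0980 without any 1 of the WT libraries or the FHL3 KO-labelled replicates 2 or 3, and was 0.132 after scaling to the same sum, 0.0571 with replicate number as a block and 0.0739 without a filter. The Lrp6 adjusted p lay between 0.0572 and 0.0691 without WT replicates 1 or 2 or the FHL3 KO-labelled replicates 1 or 3, and was 0.0722 without a filter.

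Of the R-spondin branch, Lgr4 and Lgr6 were present, and Lgr5 and the 4 ligands were at 0 or at traces. Rspo1 and Rspo4 were listed at 0 in all libraries, and Rspo2 and Rspo3 in all but 1 WT library each, at 0.0276 and 0.0182 FPKM. Lgr4, the broadly used receptor of the branch, stood at 6.78, 5.78 and 4.11 FPKM in WT, against 3.96, 5.21 and 4.12 FPKM for the KO label, with overlap and no call (log2 change -0.26, 95% interval -0.66 to 0.15, limma adjusted p = 0.269). Lgr5, a marker of epithelial stem cells, was listed at 0.

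Lgr6 (ENSMUSG00000042793, chromosome 1, 134983301 to 135105276), the related receptor of skin stem cells and bone, stood at 0.728, 0.473 and 0.650 FPKM in WT, against 2.39, 2.72 and 1.64 FPKM for the KO label. The lowest FHL3 KO-labelled library was more than 2 times the highest WT library. Its mean rose 3.64-fold, from 0.617 ± 0.13 to 2.25 ± 0.55 FPKM (log2 change 0.99, SE 0.16, limma adjusted p = 0.00304). Lgr6 has 6851 exonic bases, a length class in which 10.5% of genes rose, and its change was 0.98 with the length and GC trend removed.

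The secreted antagonists were low in both groups, and Sfrp4 alone of the 2 tested rose. Only Sfrp4 and Dkk2 of the 9 passed the filter. Sfrp4 (chromosome 13, 19623104 to 19632994), which binds WNTs directly, stood at 0.688, 0.249 and 0.418 FPKM in WT, against 1.30, 1.34 and 0.912 FPKM for the KO label. It rose from 0.452 ± 0.22 to 1.18 ± 0.24 FPKM without overlap (log2 change 0.59, SE 0.16, limma adjusted p = 0.0220). The call ended without WT replicates 2 (adjusted p = 0.0854) or 3 (0.0547), without the FHL3 KO-labelled replicates 1 (0.0711) or 2 (0.0520) and without a filter (0.0571), with 0.00463 the lowest value over the alternatives.

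Sfrp2, a WNT-binding protein secreted by mesenchymal cells, was below the filter, at 0.160, 0.0550 and 0.0844 FPKM in WT, against 0.533, 0.495 and 0.727 FPKM for the KO label. The groups were far apart relative to their spread, at 0.0999 ± 0.054 and 0.585 ± 0.12 FPKM, and without a filter the limma adjusted p was 0.0104 (log2 change 0.53). Frzb and Sfrp1 showed only traces, up to 0.151 and 0.176 FPKM. Dkk3, a divergent member of the Dickkopf family, was below the filter too, at 0.329, 0.500 and 0.330 FPKM in WT, against 0.0149, 0 and 0.244 FPKM (adjusted p without a filter 0.0777). Dkk2, which binds LRP5 and LRP6, stood at 1.28, 0.975 and 0.969 FPKM in WT, against 0.556, 1.35 and 1.05 FPKM, with overlap and no call (log2 change -0.08, 95% interval -0.49 to 0.33). Its sign turned after quantile normalization (0.11) and without the FHL3 KO-labelled replicate 1 (0.09).

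Of the 7 intracellular members, all tested, 3 rose (Tcf7, Tcf7l1 and Tcf7l2), none fell and 4 made no call (Lef1, Ctnnb1, Axin1 and Axin2), where 19.7% of all genes rose and 21.2% fell. Tcf7 (ENSMUSG00000000782, chromosome 11, 52252371 to 52283014), which encodes TCF1, stood at 15.0, 15.1 and 15.8 FPKM in WT, against 19.5, 19.8 and 20.9 FPKM for the KO label. Both groups were tight and clearly apart. Its mean rose from 15.3 ± 0.40 to 20.1 ± 0.70 FPKM (log2 change 0.37, SE 0.075, limma adjusted p = 0.00752). The Tcf7 change was 0.23 with the length and GC trend removed (adjusted p = 0.0191).

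Tcf7l1 (chromosome 6, 72626378 to 72789254), which encodes the mostly repressive TCF3, stood at 8.51, 5.88 and 6.75 FPKM in WT, against 9.85, 11.1 and 10.1 FPKM for the KO label, and rose from 7.05 ± 1.3 to 10.4 ± 0.67 FPKM (log2 change 0.51, limma adjusted p = 0.0187). The Tcf7l1 change was 0.30 and no longer called with the length and GC trend removed (adjusted p = 0.120). It also lost the call after scaling to the same sum (0.0720), without WT replicates 2 (0.0704) or 3 (0.0502) and without a filter (0.0586), with 0.00759 the lowest value over the alternatives. Tcf7l2 (chromosome 19, 55741820 to 55933654), which encodes TCF4, stood at 1.03, 0.939 and 0.860 FPKM in WT, against 1.50, 1.39 and 1.64 FPKM, without overlap (log2 change 0.37, limma adjusted p = 0.0363). Its call was the least firm of the factors: the adjusted p lay between 0.0525 and 0.111 without any 1 of the WT libraries or the FHL3 KO-labelled replicates 1 or 3, and was 0.0933 after scaling to the same sum, 0.0840 with replicate number as a block and 0.0775 without a filter.

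Lef1, the remaining factor of the family, stood at 3.54, 2.91 and 2.51 FPKM in WT, against 3.97, 4.13 and 3.38 FPKM for the KO label. The groups overlapped and no call was made (log2 change 0.28, 95% interval -0.03 to 0.59, limma adjusted p = 0.130). With the length and GC trend removed it was called at 0.49 (adjusted p = 0.00416), and after quantile normalization at 0.46 (0.0134), up to 0.368 over the alternatives. The summed FPKM of the 4 factors was 28.1, 24.8 and 25.9 in WT and 34.8, 36.5 and 36.0 in the FHL3 KO-labelled libraries, and Tcf7 made up 58.4% ± 4.3 and 56.1% ± 1.8 of it.

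Ctnnb1, which encodes beta-catenin, was the highest of all members, at 141, 140.3 and 133 FPKM in WT, against 124, 137 and 128 FPKM for the KO label (log2 change -0.09, 95% interval -0.27 to 0.09, limma adjusted p = 0.365). Axin1, the scaffold of the destruction complex, was at 11.8 ± 0.79 and 12.5 ± 1.1 FPKM. Its log2 change of 0.08 turned to -0.02 after scaling to the same sum and to -0.10 with the length and GC trend removed. Axin2, a scaffold that beta-catenin signalling itself induces and that is often read as a measure of it, stood at 1.82, 1.80 and 1.55 FPKM in WT, against 1.39, 1.05 and 1.66 FPKM. These groups overlapped, and Axin2 made no call (log2 change -0.21, 95% interval -0.53 to 0.11, limma adjusted p = 0.254), and its adjusted p ran from 0.0923 to 0.765 across the alternatives.

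**Figure D3:**
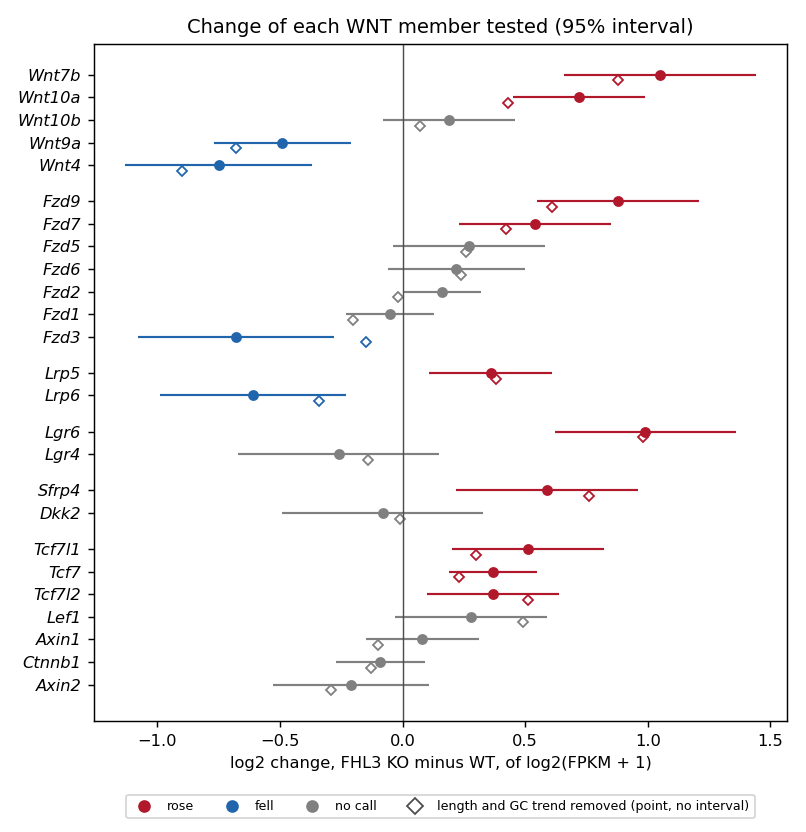
Log2 change of log2(FPKM + 1) between the FHL3 KO-labelled libraries and WT (n = 3 each) for each of the 25 members tested, grouped by role, with filled circles and 95% intervals from limma and open diamonds for the change with the length and GC trend removed. Wnt7b (1.05) and Lgr6 (0.99) are furthest to the right and Wnt4 (-0.75) furthest to the left, and the diamond of Fzd3 (-0.15) lies far from its circle (-0.68).

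The rest of the pathway was examined in 82 further genes in 6 lists, of which 60 were tested, and 16 rose, 13 fell and 31 made no call (19.7% of all genes rose and 21.2% fell), with a median log2 change of 0.02. After scaling to the same sum 10 rose and 18 fell. Wif1, Mcam, Nkd2 and Tnfrsf19 passed the filter through the FHL3 KO-labelled libraries alone and Apc2 and Ccn5 through WT alone, so only their higher group brought these 6 to the test, and all 6 were called. Of the 54 that passed in both groups 12 rose and 11 fell, where 19.7% and 19.5% of all such genes did. Of 3 genes tested that act on the ligand itself, in its lipid attachment, transport or inactivation, 2 fell. Porcn, the enzyme that attaches the lipid to WNTs, stood at 69.8, 78.3 and 80.2 FPKM in WT, against 51.4, 50.5 and 47.2 FPKM for the KO label, well apart (log2 change -0.60, limma adjusted p = 0.00162). Trabd2b, a protease that inactivates WNTs, fell from 3.74 ± 0.42 to 1.25 ± 0.30 FPKM (-1.08, adjusted p = 0.00124). Wls, the carrier that brings WNTs to the cell surface, had means of 138 ± 15 and 108 ± 14 FPKM and made no call (-0.35, adjusted p = 0.0515, and 0.07 with the length and GC trend removed).

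Among 7 other surface and secreted proteins tested 3 rose and 1 fell, where 19.7% of all genes tested rose and 21.2% fell. Wif1, a secreted WNT antagonist, rose from 0.127 ± 0.073 to 1.16 ± 0.20 FPKM, the polarity receptor Ptk7 from 8.04 ± 0.66 to 13.2 ± 0.64 FPKM and Mcam from 0.675 ± 0.16 to 1.56 ± 0.18 FPKM (limma adjusted p = 0.00196, 0.00195 and 0.00890). Of 20 cytoplasmic genes 5 rose and 3 fell, beside the same shares of all genes. The destruction complex genes Apc and Apc2 fell, Apc from 8.90 ± 2.4 to 3.72 ± 0.96 FPKM, Apc2 from 2.47 ± 0.15 to 0.675 ± 0.092 FPKM, and Nkd2, an inhibitor of Dishevelled, rose from 0.230 ± 0.082 to 1.40 ± 0.13 FPKM (adjusted p = 0.00580, 0.000617 and 0.00124). Csnk1a1, of the same complex, rose from 76.3 ± 4.5 to 95.3 ± 5.1 FPKM (limma adjusted p = 0.0175), and Gsk3a and Gsk3b made no call. Apc has 16116 exonic bases, and its log2 change of -1.06 was -0.66 with the length and GC trend removed.

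Of 13 nuclear partners 2 rose and 1 fell, where 19.7% of all genes tested rose and 21.2% fell. The co-repressors divided, with Tle2 falling from 6.16 ± 0.42 to 2.89 ± 0.29 FPKM and Ctbp1 and Tle1 rising from 105 ± 5.9 to 144 ± 1.1 and from 7.22 ± 0.62 to 9.96 ± 1.1 FPKM (limma adjusted p = 0.000995, 0.00324 and 0.0205). Of 9 planar polarity genes 3 rose and 3 fell, beside the same shares of all genes. Scrib rose from 38.2 ± 1.9 to 88.2 ± 16 FPKM and Prickle1 from 5.04 ± 0.56 to 9.77 ± 0.81 FPKM, while the formin Daam1 fell from 21.6 ± 3.9 to 10.2 ± 0.87 FPKM (adjusted p = 0.000707, 0.00131 and 0.00158).

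Of 10 genes tested that beta-catenin is known to induce in one tissue or another, 3 rose and 4 fell, where 40.8% of all genes were called in either direction. Myc stood at 9.70, 8.68 and 7.22 FPKM in WT, against 27.9, 28.5 and 24.1 FPKM for the KO label, far apart (log2 change 1.55, limma adjusted p = 0.000175). Fst, which encodes the myostatin inhibitor follistatin, rose from 25.4 ± 0.71 to 66.0 ± 6.2 FPKM and Tnfrsf19 from 0.808 ± 0.12 to 4.17 ± 0.63 FPKM (adjusted p = 8.91e-05 and 0.000254). The 4 that fell were Ccn5, Cd44, Gja1 and Apcdd1, at log2 changes of -0.75, -0.67, -0.36 and -0.43. Apcdd1 is in the surface list as well, and without the length and GC trend Gja1 was at 0.08 (adjusted p = 0.515) and Apcdd1 at -0.27 (0.0923).

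**Figure D4:**
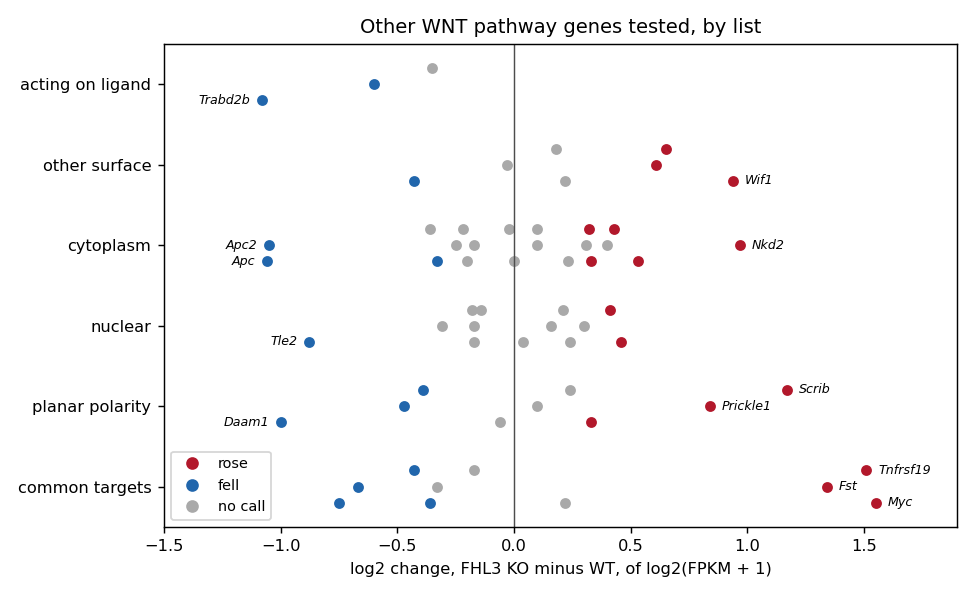
Log2 change of log2(FPKM + 1) between the FHL3 KO-labelled libraries and WT for the other WNT pathway genes tested, 1 row per list, with red for genes that rose, blue for genes that fell and grey for no call; small vertical offsets separate points. Trabd2b (-1.08), Apc (-1.06) and Apc2 (-1.05) lie furthest left, and Myc (1.55) and Tnfrsf19 (1.51) furthest right.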

How the data were processed

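RNA of 3 WT and 3 FHL3 KO libraries was compared. The values of the deposited table were taken as FPKM. Per the file headers no unit is named, and the columns sum to unequal totals. The submitters' processing notes name mm10, HISAT2 2.2.1, Trim Galore 0.6.6, DESeq2 1.28.1 and featureCounts 2.0.1, without role or order. How reads were assigned to strands and to genes that share them is not stated in these notes, so division between paralogs is uncertain. Of 55420 rows, 7 with 3 repeated gene IDs were left out. GENCODE M21 (GRCm38) held 94.1% of the IDs and gave coordinates, exon length and GC content.

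The 12528 genes whose WT or FHL3 KO mean reached 1 FPKM were fitted as log2(FPKM + 1) with limma 3.58.1 in R 4.3.3 (mean-variance trend, two-sided, no covariates), with Benjamini-Hochberg adjustment over all genes and a threshold of 0.05. Steps were tested on simulated data. The members and lists were chosen with earlier results of these data known. Of the members, values per library are printed for those called and the highest of each family. Outside that rule they are printed for Wnt10b, Lef1, Axin2 and some members below the filter. Up to 3 genes with the smallest p are named per pathway list. Gja1, Cd44, Ccn5, Apcdd1, Csnk1a1, Gsk3a, Gsk3b and the members below the filter were named after their values were seen. Alternatives were another pseudocount, other filters and scalings, removal of the length and GC trend (splines, 5 degrees of freedom), a replicate block, limma without the trend, a threshold of 0.01 and leaving out each library. Genes overlapping on the other strand cannot be told apart if counting ignored strand. None of the changed members overlapped an annotated gene above 0.105 FPKM (Tcf7).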

Additional observations from a re-analysis of the deposited data

How the results depend on the processing

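Of the 14 called members 6 (Wnt7b, Wnt10a, Wnt4, Fzd9, Lgr6 and Tcf7) kept their call in every alternative in which they were tested. Wnt10a and Tcf7 were tested in all 17, Wnt7b, Fzd9 and Lgr6 in 16 and Wnt4 in 15. Wnt7b, Lgr6 and Wnt4 passed the main filter through 1 group alone. The other 8 lost their call at the threshold of 0.01, which follows by construction from their main adjusted p. The same 8 also lost it without a filter on low values and without WT replicate 2. No called member changed sign. Against 10 member rises in the main test there were 14 after quantile normalization (Wnt10b, Fzd5, Fzd6 and Lef1 added), 6 without a filter on low values (Sfrp2, tested only there, included), 5 with a filter at 5 FPKM, 6 with libraries scaled to the same sum and 5 at a threshold of 0.01, and the count ran from 5 (without WT replicate 2; 6 without WT replicate 3) to 8 when 1 library was left out. Against 4 falls there were 1 without a filter, 2 with a filter at 5 FPKM and 1 at a threshold of 0.01, and the count ran from 1 (without WT replicate 2 or FHL3 KO-labelled replicate 1; 2 without WT replicate 1 or FHL3 KO-labelled replicate 3) to 4 when 1 library was left out. Of the signs without a call, Fzd2 turned to -0.02 with the length and GC trend removed, Axin1 to -0.02 after scaling to the same sum and to -0.10 with that trend removed, and Dkk2 to 0.11 after quantile normalization and to 0.09 without FHL3 KO-labelled replicate 1, the upper end of -0.21 to 0.09 when 1 library was left out.

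Of the other pathway genes 10 rose and 18 fell after scaling to the same sum, against 16 and 13, and 10 rose and 8 fell at a threshold of 0.01. Leaving out 1 library gave 11 to 16 rises and 8 (without WT replicate 2) to 14 falls. Over all genes 2462 rose and 2650 fell, against 1687 and 2962 (36.3% rises, not 48.2%) after scaling to the same sum. Calls numbered 5112, 2695 at a threshold of 0.01, and ran from 3272 (without WT replicate 2) to 5273 when 1 library was left out. A stricter threshold gives fewer calls by construction. With a filter at 5 FPKM, 7 of the 14 called members were tested and all 7 kept their call. For the other settings the cause was not tested. With replicate number as a block 8 members rose, 4 fell and 4759 genes were called. Same-numbered libraries deviated together at correlations of -0.127, -0.0626 and 0.316, so the numbers were not taken as pairs.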
